A study of Homo sapiens with 16 samples.

Results

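HIF-1α binding sites found in PC3 cells and in none of the other cancer cell lines were compared with the PC3 sites that another line shared. PC3 is an established prostate cancer line, and the other lines were A549 (lung cancer), HCT116 (colorectal cancer) and T47D (breast cancer). Each line was held at 0.5% oxygen for 16 h, and chromatin was immunoprecipitated with the PM14 antibody against HIF-1α or the PM9 antibody against HIF-2α in 2 replicates, giving 16 peak lists, all from hypoxic cells. No genotype or drug was varied. The growth medium differed between lines (F12K for PC3 and A549, DMEM for T47D, McCoy's 5a for HCT116), so PC3 and A549 shared a medium and for the other lines medium and line cannot be told apart, and each tumor type was represented by 1 line. A PC3 site was a merged region with a peak in both PC3 HIF-1α lists, overlapping by at least 1 bp. Of the 1063 PC3 sites, 227 (21.4%, 95% Wilson interval 19% to 23.9%) overlapped no HIF-1α peak in any of the 6 libraries of the other lines and are called PC3-only, and the other 836 are called shared. The share depended on the libraries used, and was 41.4% without PC3 replicate 1 and 35.3% without PC3 replicate 2, when a peak in the remaining PC3 library sufficed. The 4 lines together held 3001 merged HIF-1α sites. Overlap with other lines is what defined the PC3-only sites, and position, score, sequence and HIF-2α binding were not used to choose them. Intervals cover counting error only, and the deposited lists hold no read counts, so sequencing depth is unknown.

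HIF-1α and HIF-2α are the oxygen-regulated subunits of the hypoxia-inducible factors. In oxygenated cells prolyl hydroxylases mark them for destruction, and in hypoxia they persist, pair with HIF-1β and bind the core motif RCGTG, which is ACGTG or GCGTG. HIF-1 is best known for inducing glycolytic enzymes from sites close to gene starts, while much of the response differs between cell types.

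The sequences below, taken from the GRCh37 genome, are 61-base windows around the core motif nearest to the center of a site, in lower case with every core motif on either strand in capitals. The first 5 windows are from PC3-only sites near genes for secreted ligands, an adhesion molecule and a glucose transporter, and show the letters at promoter and at more distant positions. ICAM1 lies at chr19:10381517-10381577 on the plus strand, APLN at chrX:128788191-128788251, PDGFA at chr7:475979-476039, PDGFB at chr22:39648339-39648399 and SLC2A1 at chr1:43407053-43407113, the last 4 on the minus strand.

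ICAM1: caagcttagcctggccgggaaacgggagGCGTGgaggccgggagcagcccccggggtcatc
APLN: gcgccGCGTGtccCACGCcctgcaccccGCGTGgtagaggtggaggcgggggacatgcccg
PDGFA: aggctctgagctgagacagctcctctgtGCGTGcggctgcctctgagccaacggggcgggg
PDGFB: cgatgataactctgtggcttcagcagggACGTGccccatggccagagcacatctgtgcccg
SLC2A1: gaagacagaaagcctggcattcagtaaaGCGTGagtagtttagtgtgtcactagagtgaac

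For contrast, the intronic window of P4HA1, one of the 10 best-scoring shared sites, is at chr10:74856314-74856374 on the plus strand. It is at a promoter and holds 10 CpG dinucleotides, against 8 and 5 in the promoter windows of APLN and ICAM1. The PDGFA, PDGFB and SLC2A1 windows, away from promoters, hold 4, 3 and 1. The motifs shown for P4HA1 and SLC2A1 lie at -103 and -141 bp from the site center. These 2 sites therefore hold no core motif in the central 200 bp used for the motif counts below.

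P4HA1: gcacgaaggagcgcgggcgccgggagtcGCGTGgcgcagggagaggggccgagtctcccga

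The PC3-only sites lay away from gene starts. Only 87 of 227 (38.3%) had their center within 1000 bp of a start of a protein-coding transcript, called a promoter here, against 593 of 836 shared sites (70.9%), a difference of -32.6 percentage points (95% Newcombe interval -39.4 to -25.4). Conversely, 100 PC3-only sites (44.1%) were distal, over 10000 bp from any such start, against 155 shared sites (18.5%), a difference of 25.5 points (18.6 to 32.5). The median distance was 5336 bp for PC3-only and 234.5 bp for shared sites. By annotation, 41.0% of PC3-only centers were intergenic and 39.6% intronic, against 32.9% and 32.8% of shared centers. A further 6.61% of PC3-only and 6.34% of shared sites lay within 1000 bp of the start of a long noncoding RNA and of no protein-coding start.

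The promoter share differed most between sites with no other line and sites with 1 other line. It was 38.3% with no other line, 66.8% with 1 (n = 367), 73.6% with 2 (n = 227) and 74.8% with 3 (n = 242). HCT116 supplied most of the sharing. It had a peak at 799 PC3 sites (75.2%), 337 of them as the only other line, while T47D had one at 38.1% of them and A549 at 32.3%, with 13 and 17 sites shared with that line alone. The rise in promoter share with 1 other line came from HCT116, since 69.7% of the sites shared with HCT116 alone were at promoters, against 46.2% with T47D alone and 23.5% with A549 alone, the last below the PC3-only value. HCT116 also had the longest lists, 4505 and 4465 peaks, against 1517 and 3413 in PC3, 761 and 711 in T47D and 382 and 629 in A549. When HCT116 was left out, 53.1% of PC3 sites had no peak in another line and the promoter difference shrank to -14.7 points, so both the number of PC3-only sites and their distance from promoters depended on that line.

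**Figure D1:**
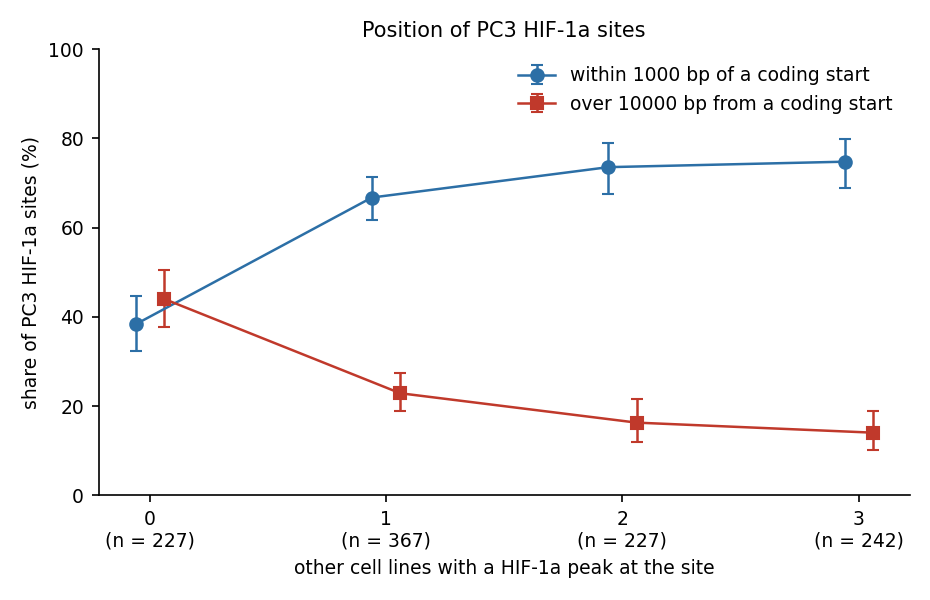
Share of the 1063 PC3 HIF-1α sites (%) within 1000 bp of a protein-coding start (circles) or over 10000 bp from one (squares), by how many of the other 3 lines had a HIF-1α peak there; bars are 95% Wilson intervals. The promoter share rises from 38.3% to 66.8% between 0 and 1 other line, where most sites are shared with HCT116, and reaches 74.8% with 3.

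A related comparison was made within each HIF-1α list, where a peak was line-only if no peak of another line overlapped it. It took all peaks of a list, including those absent from the other replicate, so it differs from the comparison of sites. In PC3, 35.8% of line-only and 72.6% of shared peaks were at promoters in replicate 1, and 48.3% and 74.3% in replicate 2. Line-only peaks were less often at promoters in all 8 libraries, by 12.6 points in HCT116 replicate 2 up to 56.8 points in T47D replicate 2. The mean difference over the 8 libraries was -35.0 ± 15.6 points (SD, n = 8; two-sided exact sign-flip permutation test, p = 0.00781, the smallest it can give, adjusted p = 0.0182 over 7 tests by Benjamini-Hochberg). No difference of PC3 from the other lines was resolved here. Its value was -31.4 ± 7.64 points (SD, n = 2), against -36.2 ± 17.9 (SD, n = 6) in the other lines (two-sided exact permutation test over 28 relabellings, p = 0.75, adjusted p = 0.875), and the ranges overlapped. The share of a list that was line-only was likewise 38.3% ± 4.32 (n = 2) in PC3 and 34.3% ± 19.4 (n = 6) elsewhere (exact permutation p = 0.929, adjusted p = 0.929), running from 18.1% in A549 replicate 3 to 60.9% in HCT116 replicate 3. Both comparisons depended on HCT116. Without that line, PC3 exceeded the other lines by 42.3 points in the line-only share and by 23.3 points in the promoter difference (exact permutation p = 0.0667 for each, the smallest that 15 relabellings allow, adjusted p = 0.0933), so this setting could not pass 0.05. With all lists reduced to equal length, the mean promoter difference over the 8 libraries was -17.7 points (exact permutation, adjusted p = 0.0365). Libraries of 1 line are not independent lines, and with lines as units neither kind of test could pass 0.05.

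**Figure D2:**
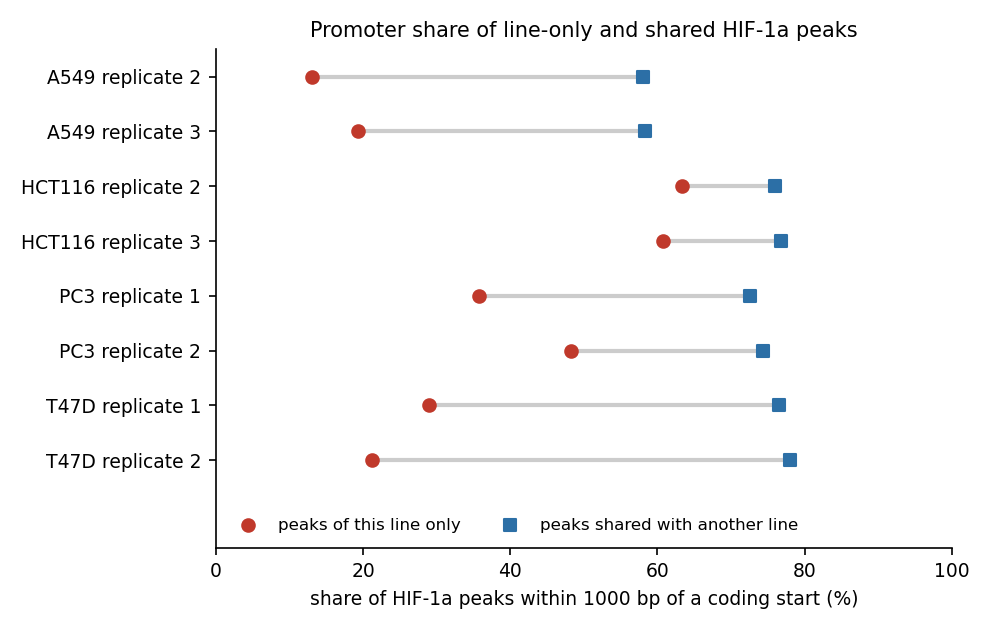
Share of HIF-1α peaks (%) within 1000 bp of a protein-coding start in each of the 8 HIF-1α libraries, for peaks found in that line only (circles) and peaks shared with another line (squares). The line-only share is lower in every library, with the narrowest gaps in both HCT116 libraries.

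At the level of sites present in both replicates, the lines differed in what their own sites looked like. Of 2502 HCT116 sites, 1027 (41.0%) were found in HCT116 alone, and 75.2% of these were at promoters, against 75.8% of its shared sites. The differences of -12.6 and -16.0 points within the HCT116 lists were thus not seen among its sites present in both replicates. Of 439 T47D sites, 47 (10.7%) were T47D-only with 27.7% at promoters, and of 252 A549 sites, 19 (7.54%) were A549-only with 15.8% at promoters. PC3, at 38.3%, therefore lay between HCT116 and the lines with the shorter lists.

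PC3-only sites scored lower than shared sites. The score is the peak caller's own value, taken here as a percentile rank within each list and averaged over both PC3 libraries. Its median was at the 55.4th percentile for PC3-only and at the 71.6th for shared sites, and it was 59.6 with 1, 71.2 with 2 and 91.4 with 3 other lines. Of the 355 best-ranked PC3 sites 35 (9.86%) were PC3-only, of the middle 354 it was 77 (21.8%), and of the lowest 354 it was 115 (32.5%). Only 2 of the best 50 and 18 of the best 200 sites were PC3-only. Within each of the 8 HIF-1α lists line-only peaks again had the lower median percentile, at -32.1 ± 3.18 points on average (line-only minus shared, exact sign-flip permutation test, n = 8, p = 0.00781, adjusted p = 0.0182), and a difference of PC3 from the other lines was not resolved (-29.4 ± 3.12, n = 2, against -32.9 ± 2.92, n = 6, exact permutation p = 0.179, adjusted p = 0.312).

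The promoter difference had its largest value among the strongest sites, but the levels of score were not tested against each other. Among the 355 best-ranked, 6 of 35 PC3-only sites (17.1%) and 66.2% of shared sites were at promoters (-49.1 points, -59.4 to -32.7). In the middle ranks the difference was -36.2 points (-47.2 to -23.7) and in the lowest -29.2 (-39.4 to -18.4). All of these intervals overlapped, which does not settle whether the levels differ. The promoter share was therefore lower in PC3-only sites at every level of score. Peaks found in 1 PC3 replicate alone were more often without a counterpart in other lines, at 307 of 450 (68.2%) for replicate 1 and 1185 of 2350 (50.4%) for replicate 2, and these were not counted as sites.

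**Figure D3:**
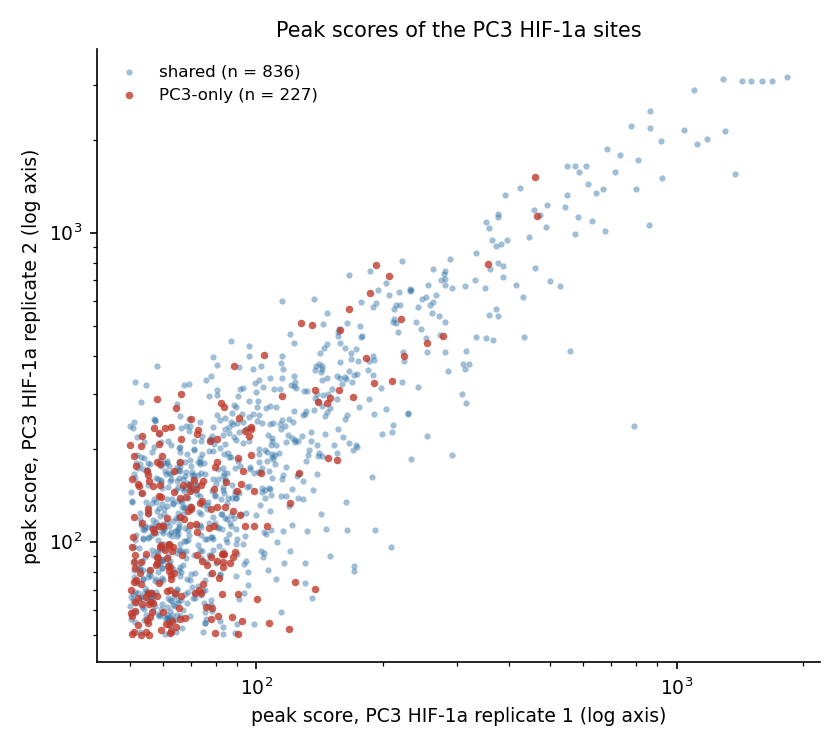
Peak score of each PC3 HIF-1α site in replicate 1 (x) and replicate 2 (y), both on log axes, for 836 shared and 227 PC3-only sites. PC3-only sites crowd the low end, and 35 of them are among the best-ranked 355 sites.

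By nearest gene, the 227 PC3-only sites fell at 220 genes, 1.11% of the 19794 protein-coding genes annotated, and the 836 shared sites at 805 genes, 4.07% of them. Between them, 20 genes had a site of each kind (9.09% of the 220 and 2.48% of the 805). Of the 220 genes, 71 (32.3%) were also the nearest gene to a HIF-1α peak of another line elsewhere. This was so for 41 of the 96 genes nearest to a distal PC3-only site (42.7%) and for 11 of the 86 with a PC3-only site at the promoter (12.8%). The same share over all protein-coding genes was not computed, so these values have no background. A peak of another line overlapping the promoter site would have made it shared, so the distal and promoter shares are not like for like. Of the PC3-only sites 8 (3.52%) had a HIF-1α peak of another line within 1000 bp and 37 (16.3%) within 10000 bp. Just outside the limit were MMP23B, 45 bp from the nearest such peak, JUN at 165 bp and NOG at 184 bp. The smallest overlaps counted as shared were 493 bp at TPTE, 595 bp at YY1 and 643 bp at KLRF1. At TPTE and YY1 the overlap covered the whole of a short site, so these were not marginal.

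Genes of glycolysis and the consensus HIF targets were almost all on the shared side. Of 22 genes of glycolysis and glucose uptake, 20 were nearest to a shared site (90.9%, against the 4.07% of all genes) and 1 of these, SLC2A1, also to a PC3-only site. Among 47 consensus HIF target genes, which the study chose partly on these samples and which are therefore not independent evidence, 44 had a shared and 2 a PC3-only site, and both of those (SLC2A1 and NDRG1) had a shared site as well. Jumonji histone demethylases (7 of 21), mitophagy genes (5 of 16) and oxygen sensing genes (3 of 16) had shared sites and no PC3-only site. Only 1.11% of all protein-coding genes were nearest to a PC3-only site, so the lack of one does not set such short lists apart. The best-ranked shared sites included several such genes. ENO1, encoding the glycolytic enzyme enolase, scored 1830 and 3184 in PC3 and between 1008 and 3100 in the other lines, and GPI, glucose-6-phosphate isomerase, scored 1505 and 3100 in PC3. PDK1, which limits pyruvate entry into mitochondria, SLC16A3, the lactate exporter, and P4HA1, a collagen prolyl hydroxylase, were also among the 10 best, all with peaks in all 8 HIF-1α libraries. The remaining members were ANKRD37, NARF, PNRC1, the RRP12 promoter next to the glycolytic gene PGAM1, and a site 11038 bp upstream of SNAPC1.

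No list held more than 2 genes nearest to a PC3-only site, against 1.11% of all protein-coding genes, and counts this small do not separate a list from that background. The counts were 2 of 21 angiogenic and vasoactive genes (PDGFA and PDGFB, growth factors for mesenchymal cells, with 6 genes at shared sites), 2 of 18 AP-1 and related factors (BACH1, a heme-regulated repressor, and JUN), 2 of 22 lipid genes (ACSL3, an acyl-CoA synthetase, and FABP3, a fatty acid carrier) and 2 of 30 integrin, adhesion and actin genes (LPP and MYH9, the latter a nonmuscle myosin). The 86 cytosolic ribosomal protein genes had 2 PC3-only sites, RPS7 among them, and no shared one. A single PC3-only site fell nearest to 12 glycogen genes (PPP1R3G, a glycogen-targeting phosphatase subunit), 23 collagen and laminin genes (COL6A2) and 25 NF-kB and cytokine genes (ICAM1). The same held for 26 mesenchymal genes (SNAI2, a repressor of epithelial genes) and 79 histone genes (H3-3A). Sites of JUN, ICAM1, FABP3, LPP and RPS7 were at promoters, and those of PDGFB and PPP1R3G within 10000 bp. The other named sites were distal, at 12507 bp from ACSL3, 29469 bp from MYH9, 39929 bp from BACH1 and 48137 bp from COL6A2. H3-3A, PDGFA and SNAI2 were farthest, at 58377, 82196 and 85532 bp. Lowest in rank were SNAI2, RPS7, H3-3A and LPP, at the 24.4th, 29.8th, 30.6th and 30.7th percentile. None fell among the 17 prostate epithelial genes, of which SLC45A3 had a shared site, nor among 24 growth factor signaling, 18 stress, 22 cell cycle, 78 mitochondrial ribosomal or 82 respiratory chain genes. Binding lists hold no expression, so the prostate identity of the cells could not be checked with these markers.

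At promoters, the best-ranked PC3-only site was 222 bp upstream of an annotated start of CALB1, the calcium-binding protein calbindin, on chromosome 8. It scored 467 in replicate 1 and 1131 in replicate 2, at the 98.0th percentile on average, with no HIF-1α peak of another line within 92851 bp. This was far above the next promoters. TMEM139 scored 147 and 282, and ICAM1, encoding an adhesion molecule for leukocytes, scored 115 and 297 at a site 276 bp upstream of its start. APLN, encoding the vasoactive peptide apelin, scored 79.8 and 175, with 9 core motifs in the whole site. The others were ENDOV (endonuclease V), CEP250 (a centrosome linker protein, whose site also spanned a start of GDF5), AL590560.1, EXOC5 (an exocyst subunit, whose site also spanned a start of AP5M1), DPP9 (a dipeptidyl peptidase) and MIA2, the last at the 72.9th percentile with 98.7 and 113. Of all 87 PC3-only promoter sites, 6 were among the 355 best-ranked PC3 sites, 28 in the middle and 53 in the lowest ranks, with a median at the 46.7th percentile.

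Among distal sites, the highest rank was held by an intergenic region 126668 bp upstream of VOPP1, which scored 460 and 1515. It also had HIF-2α peaks in both PC3 libraries (248 and 894) and in no library of another line. Next came DCTD (deoxycytidylate deaminase) with 355 and 793, STS (steroid sulfatase, in an intron of PUDP) with 278 and 464, and KCNS1 (a potassium channel subunit) with 193 and 785. The rest ranked between the 92.1st and 93.8th percentile and lay nearest to ASB14 (in an intron of DNAH12), BLCAP, TUBGCP2 (a gamma-tubulin complex protein, in one of its coding exons), OR1I1 (an olfactory receptor), COPS8 (a COP9 signalosome subunit) and PDGFA. Distances to these nearest genes ran from 11149 to 209887 bp, and nearest does not mean regulated. VOPP1, KCNS1, BLCAP, TUBGCP2 and COPS8 had HIF-2α peaks in both PC3 libraries, OR1I1 in 1, and DCTD, STS, ASB14 and PDGFA in neither.

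Several PC3-only sites were extra sites beside a well-known shared one. SLC2A1, encoding the glucose transporter GLUT1, had a shared promoter site scoring 316 and 281, a shared site 3926 bp upstream, and a PC3-only intronic site scoring 52.7 and 152. At PPP1R3G the PC3-only site (84.7 and 155) was 338 bp from the nearest peak of another line, and the shared promoter site scored 1375 and 1549. NDRG1, a hypoxia-induced stress gene, had a shared site scoring 610 and 1640 and a PC3-only one scoring 70.0 and 128, both over 70 kb upstream. At PDGFB and JUN the order differed between the genes. The PC3-only site of PDGFB (138 and 310) scored above its shared promoter site (59.6 and 76.6), and the PC3-only promoter site of JUN (77.9 and 56.2) scored below its shared distal site (137 and 609).

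The core motif was present in both kinds of site. In the central 200 bp, 65.6% of PC3-only and 72.1% of shared sites held RCGTG on either strand, a difference of -6.49 points (-13.5 to 0.166), while windows 5000 bp to each side held it in 22.0% and 25.5%. ACGTG was found in 43.2% and 44.1% (-0.967 points, -8.10 to 6.34). GCGTG, which overlaps RCGTG by definition, was found in 35.7% and 48.2% (-12.5 points, -19.4 to -5.27). Within promoters its difference was not resolved (49.4% and 51.4%, -2.01 points, -13.0 to 9.05). Within distal sites it was 26% and 38.1% (-12.1 points, -23.0 to -0.206). Across the 8 lists RCGTG was less frequent in line-only peaks, with a mean difference of -22.8 ± 10.7 points (exact sign-flip permutation test, n = 8, p = 0.00781, adjusted p = 0.0182), and no difference between PC3 (-16.7 ± 7.31, n = 2) and the other lines (-24.8 ± 11.3, n = 6) was resolved (exact permutation p = 0.429, adjusted p = 0.6). For scale, RCGTG occurs in 38.1% of RefSeq promoters (GRCh38.p14, 200 bp windows).

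Motifs of other factors were compared over all sites and within each position class. AP-1 (TGACTCA or TGAGTCA) was found in 31 PC3-only sites (13.7%) and 50 shared sites (5.98%), a difference of 7.68 points (3.40 to 12.9), against 3.54% of RefSeq promoters. Within distal sites it was 23% and 17.4% (5.58 points, -4.25 to 16.1), and within promoters 0 of 87 and 11 of 593, so the difference was not resolved once position was held. The SP/KLF box GGGCGG was rarer in PC3-only sites, at 28.6% against 49.0%, and remained so within distal sites (13% and 25.8%, -12.8 points, -21.9 to -2.67). Within promoters the SP/KLF difference was not resolved (46.0% and 56.8%, -10.9 points, -21.7 to 0.315). ETS (CCGGAA) was found in 9.25% and 15.2%, and NF-Y (CCAAT) in 23.3% and 14.6%. Windows 5000 bp to each side of the PC3-only sites held NF-Y in 24.2%. Neither difference was resolved within promoter or distal sites, with ETS at -0.328 points in promoters and 1.77 in distal sites, and NF-Y at 4.26 and 4.71, all with intervals that included 0. For FOX (TGTTTAC), TEAD (GGAATG), E-box (CACGTG) and CRE motifs the intervals of the difference included 0. PC3-only centers held a median of 7 CpG dinucleotides per 200 bp and 60.0% GC, against 19 and 68.5% in shared centers. Both gaps were narrower once position was held. Within promoters the medians were 18 and 21 CpG, and 68.5% and 70.5% GC. Within distal sites they were 4 and 7 CpG, and 51.75% and 59% GC.

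**Figure D4:**
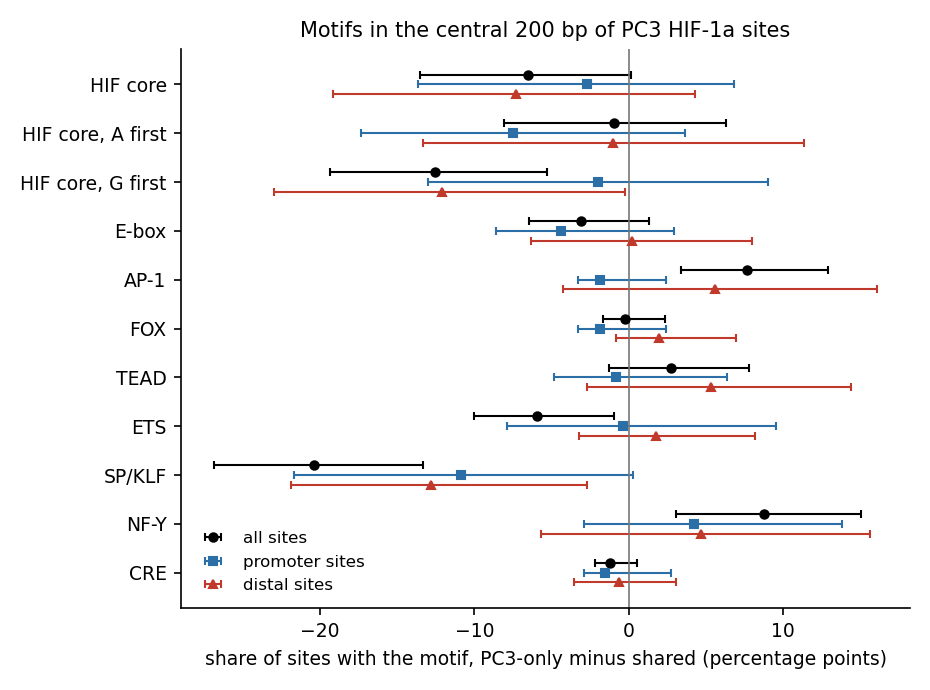
Difference in the share of sites with a motif, PC3-only minus shared (percentage points), for 11 motifs over all, promoter and distal sites; bars are 95% Newcombe intervals and the vertical line is 0. The AP-1 difference over all sites is 7.68 points and its interval within distal sites includes 0, while SP/KLF is lower over all and within distal sites.

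In PC3, HIF-2α was found at PC3-only and shared sites in shares that were not resolved from each other over all sites. In the other lines it was seldom found at PC3-only sites. A HIF-2α peak of either PC3 library lay at 81 PC3-only sites (35.7%) and 269 shared sites (32.2%), a difference of 3.51 points (-3.27 to 10.6). Within each position class the difference was negative, at -2.92 points in promoter, -3.64 in sites between 1000 and 10000 bp from a start and -10.2 (-22.3 to 2.34) in distal sites, and every interval included 0. By score the PC3-only share was the higher at every level, at 57.1% and 50.6% in the best-ranked sites and 33.8% and 26.4% in the middle. In the lowest-ranked sites it was 30.4% (95% Wilson interval 22.8% to 39.4%) and 14.2% (10.4% to 19.2%). Only there did the intervals not overlap. By library the shares were 9.69% and 9.09% in PC3 replicate 1, whose list held 275 peaks, and 35.7% and 31.7% in replicate 2, with 1290. HIF-2α peaks of the other 3 lines lay at 17 PC3-only sites (7.49%) and 365 shared sites (43.7%), a difference of -36.2 points (-40.5 to -30.8). A549 HIF-2α came closest, with 6.17% and 3.96% of PC3-only sites. Sites with no HIF-1α peak in the other lines were thus mostly without HIF-2α there too. The direction in PC3 was not stable, since the difference was -10.1 points with PC3 HIF-1α replicate 1 alone and -5.93 points without HCT116.

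**Figure D5:**
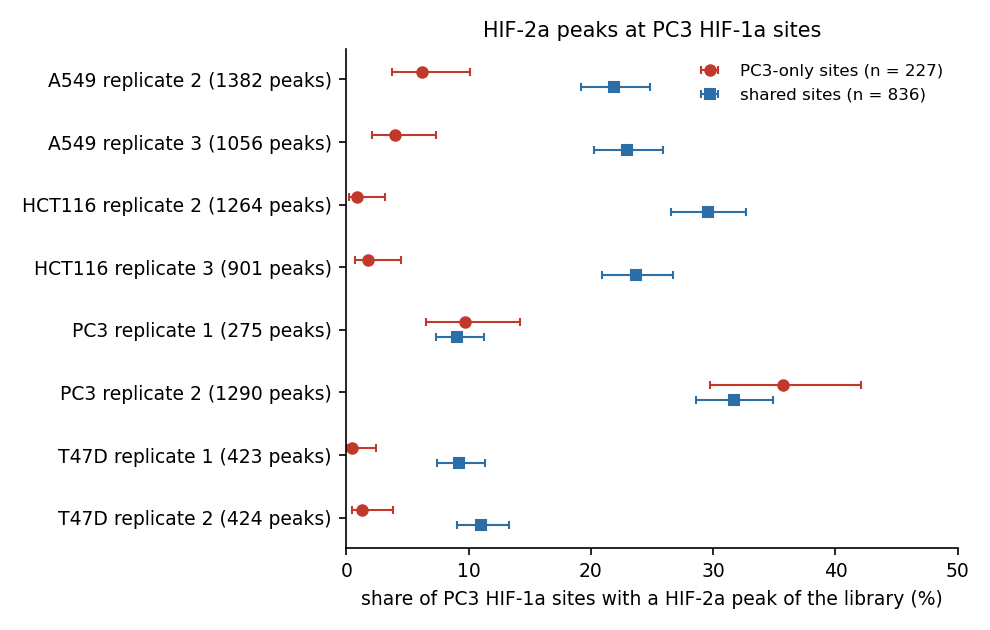
Share of the 227 PC3-only (circles) and 836 shared (squares) PC3 HIF-1α sites (%) with a HIF-2α peak in each of the 8 HIF-2α libraries, whose list lengths are given at the left; bars are 95% Wilson intervals. Only in both PC3 libraries do the intervals of the 2 kinds of site overlap.

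The exceptions were few. The PC3-only site in SLC2A1 carried HIF-2α peaks in 6 libraries, scoring 114 and 228 in PC3, 205 and 170 in A549 and 54.4 and 53.9 in HCT116, while its HIF-1α scores in PC3 were 52.7 and 152. BACH1 had HIF-2α peaks in both A549 libraries (539 and 273) and both PC3 libraries (64.6 and 285), and the ranges of the raw scores overlapped. PDGFB had HIF-2α peaks in both A549 and both PC3 libraries, and INHBA, encoding an activin subunit, in both A549 libraries, 1 of PC3 and 1 of T47D, with no core motif in its site. Antibodies and lists differ between the factors, so scores of HIF-1α and HIF-2α are given side by side and were not compared.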

How the data were processed

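Peaks were measured by ChIP-seq in 16 libraries. Per the labels and the study's methods, the authors trimmed reads (Trim Galore 0.3.3), aligned them to GRCh37 (BWA 0.7.5a-r405), filtered on mapping quality (SAMtools 0.1.19), removed blacklisted regions (bedtools 2.17.0) and duplicates (Picard 2.0.1) and called peaks with MACS and T-PIC in control mode, keeping peaks of both callers above a background of random regions. The deposited lists, 1 per library, carry MACS names numbered without gaps, and whether they passed that filter is not stated. The MACS version is not given in the sources used here. The deposited score has no stated scale, starts near 50 in every list and was tested as a rank within a list. The exception is the setting at or above the median score. It applied 1 raw cutoff of 76.6, the median of all HIF-1α peaks pooled, to every list.

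Sites, overlaps, distances to GENCODE 44 starts lifted to GRCh37, motifs in the central 200 bp and exact tests were computed in Python 3.11.15 with numpy 2.4.6, pandas 2.3.3 and pysam 0.24.0, and the code was tested on simulated data. Libraries were tested by exact permutation (28 relabellings, smallest p 0.0357, or 256 sign flips), 7 tests adjusted by Benjamini-Hochberg at 0.05. The labels do not say that replicates were separate cultures, so p-values measure the spread between these libraries. Members and gene lists (21) were chosen with earlier results of these data known. Named sites were the 10 best-ranked PC3-only promoter, 10 distal and 10 shared sites, up to 3 per list, and the 5 with the most HIF-2α libraries. The rule also took genes with 3 or more PC3-only sites, and there were none. A few named sites and sequences are not reported here. The sites with the smallest gaps or overlaps, SLC45A3 and the second sites of named genes were named after their values were seen. Alternatives were other overlap, score, list length, promoter and motif settings, each library or line left out, a replicate block and lines as units.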

Additional observations from a re-analysis of the deposited data

How the results depend on the processing

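Of 229 recomputed values, 182 kept their direction and side of the threshold or stayed within counting error or replicate spread, 15 lost significance, 23 moved and 9 changed sign. The promoter, score and RCGTG differences over all lines were negative under every alternative run, and shrank most with equal list length for promoters and RCGTG (-17.7 and -8.12, still passing). They lost significance with peaks at or above the median score (-28.2, -25.6 and -8.95, adjusted p = 0.0911, 0.0547 and 0.0911 by exact permutation), without A549 (-33.4, -31.1 and -19.9), without HCT116 (-28.5, -34.8 and -21.7) and without T47D (-28.7, -32.4 and -19.8, all adjusted p = 0.0729, with fewer libraries to flip), and with lines as units (-35.0, -32.1 and -22.8, adjusted p = 0.292, the lowest those 4 lines allow). Leaving out 1 library gave -35.3 to -31.6, -33.0 to -31.7 and -23.4 to -20.2.

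PC3 minus the other lines passed in no setting, and its sign was not stable. The largest moves were without HCT116, where the line-only share reached 42.3 and the promoter difference 23.3 (exact permutation p = 0.0667, the smallest possible there). The line-only share fell to -3.14 with equal list length, -1.83 without A549 and -2.11 without T47D (-6.49 to 14.5 over single libraries left out, lowest without PC3 replicate 2). The promoter difference became -7.06 with equal list length and -3.70 without T47D (-4.06 to 13.3). The score difference became -5.11 without HCT116 (1.61 to 5.86) and the RCGTG difference -0.112 with equal list length (0.841 to 13.3).

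The PC3-only share of PC3 sites was 33.2% against sites in both replicates of another line, 17.8% at or above the median score, 16.8% with equal list length, 44.5% with peaks of either PC3 replicate and 53.1% without HCT116 (21.4% to 41.4% over single libraries, 41.4% without PC3 replicate 1 and 35.3% without replicate 2). For these settings, where they moved, the promoter difference was -23.2 (both replicates), -41.7 (equal length) and -14.7 (without HCT116), with -36.8 to -26.0 over single libraries. The score difference was -21.1 (both replicates), -24.7 (either replicate) and -23.8 (without HCT116), with -31.6 to -15.6. RCGTG was -14.3 (either replicate), with -21.9 to -5.94. The HIF-2α difference was -4.34 (both replicates), -12.1 (equal length) and -5.93 (without HCT116), with -10.1 to 3.48, lowest without PC3 replicate 2. The cause of these changes was not tested.

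Replicate numbers gave no sign of pairing the lines (correlations of replicate deviations -0.0309 for PC3 with T47D and -0.0267 for A549 with HCT116 over 8743 merged sites). With the replicate block the 4 differences of PC3 from the other lines were 9.56, 11.4, 1.38 and 8.77 (exact permutation, adjusted p = 0.75 for each) and no call changed.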

Other observations

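By chromosome, the PC3-only share of PC3 sites ran from 1 of 19 (5.26%) on chromosome 9 and 4 of 55 (7.27%, 95% Wilson interval 2.86% to 17.3%) on chromosome 12 to 15 of 46 (32.6%, 20.9% to 47%) on chromosome 8 and 7 of 21 (33.3%) on chromosome X. These intervals are wide, and no test was run over chromosomes. Among the 354 lowest-ranked sites, PC3 HIF-2α peaks lay at 30.4% of PC3-only and 14.2% of shared sites. Among the middle 354 it was 33.8% and 26.4%, and among the 355 best-ranked 57.1% and 50.6%. Sites with a PC3 HIF-2α peak were farther from gene starts in both classes, at promoters in 22.2% of PC3-only and 52.0% of shared sites, against 47.3% and 79.9% of sites without one.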
